A study of Mus musculus with 5 samples.

Results

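The comparison described here sets hepatic progenitor cells made in culture from a neural line against hepatic progenitor lines taken from fetal liver. Its members were chosen by the labelled cell type and are 4 of the 5 arrays of the series. The 2 arrays labelled induced hepatic progenitor cells (iHPC) are iHep-9F (replicate 1) and iHep-10F (replicate 2). Both were made from the neural progenitor line NSBAg2 with retroviral vectors (pMXs) carrying 9 or 10 transcription factors. The labels do not name these factors. NSBAg2 was established from the embryonic stem cell line BAg73C2, in which an Afp allele carries a beta-geo knock-in, so that cells transcribing Afp can survive the drug G418. The iHPC received G418 3 weeks after infection and were harvested 1 week later. The 2 hepatic progenitor cell (HPC) arrays are the lines HB1 (replicate 1), from strain C57BL6J, and HNG2 (replicate 2), from STOCK Tg(Nanog-GFP, Puro)1 Yam, both from fetal liver at E13.5. The fifth array is NSBAg2 itself (NPC). Its level marks whether a difference from HPC was already present in the line from which the iHPC were made. It also entered the fit and the probe filter, and 18136 genes were tested with the 4 arrays alone, 1116 of them called.

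Hepatoblasts are the bipotent epithelial progenitors of the fetal liver, from which both hepatocytes and bile duct cells arise. Their identity rests on a network of transcription factors that includes the forkhead (Foxa), hepatocyte nuclear factor (Hnf), Gata, Onecut and C/EBP families. They secrete plasma proteins such as alpha-fetoprotein, carry simple epithelial keratins, and when propagated as lines can show genes of neighbouring gut endoderm. Hox genes and neural patterning factors mark the body axis and the neural lineage instead.

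Each level is a log2 signal minus the 75th percentile of that array, and ± gives the standard error (SE) of the fit over 2 arrays a group. The share of spots well above background ran from 58.89% to 65.56% over the arrays, whose small number limits the precision. HB1 was scanned on 1 day, HNG2 on another, and both iHPC arrays and NPC on the last, so scan day and cell type cannot be told apart. Each group holds different lines or factor sets and not repeat cultures, so p-values measure the spread between these arrays. In such bulk RNA, fewer cells expressing a gene and less RNA per cell cannot be told apart. Whether a probe also picks up vector-borne factor RNA is not given in the labels.

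Of 19308 genes tested, 1048 (5.43%) were called between iHPC and HPC (limma, adjusted p under 0.05). In iHPC, 685 of them stood higher (3.55%) and 363 stood lower (1.88%). The median difference over all genes was 0.05 on the log2 scale, and 5328 genes had an unadjusted p under 0.05. The smallest difference called was 1.37 and the median size of a called difference was 3.1. The split depends on the scaling and the filter. It was 679 higher and 621 lower when arrays were centred on their medians, which moved the median of all genes to -0.20, and 347 and 113 with no filter on dim probes, where 452 of the 1048 calls (43.1%) were made again. It was 3948 and 3035 without HPC replicate 1 and 3367 and 3461 without HPC replicate 2. Without iHPC replicate 1 or without iHPC replicate 2 limma called 0 genes (2010 and 2116 before adjustment), with the spread of the remaining iHPC array taken from the HPC pair.

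Of the called genes, 346 higher and 229 lower ones were measured well above background on all 4 arrays. A further 250 higher genes were dim (not well above background) on both HPC arrays, and 115 lower genes on both iHPC arrays. Such a gene has only a bound there, written "at least", which sets the brighter group's mean against the lowest signal that passed as well above background on the other arrays. Many such values lay at the low end of the array, where the spread between HB1 and HNG2 was small. For 27 genes, all called higher, neither group was well above background, and no fold is given for them.

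**Figure D1:**
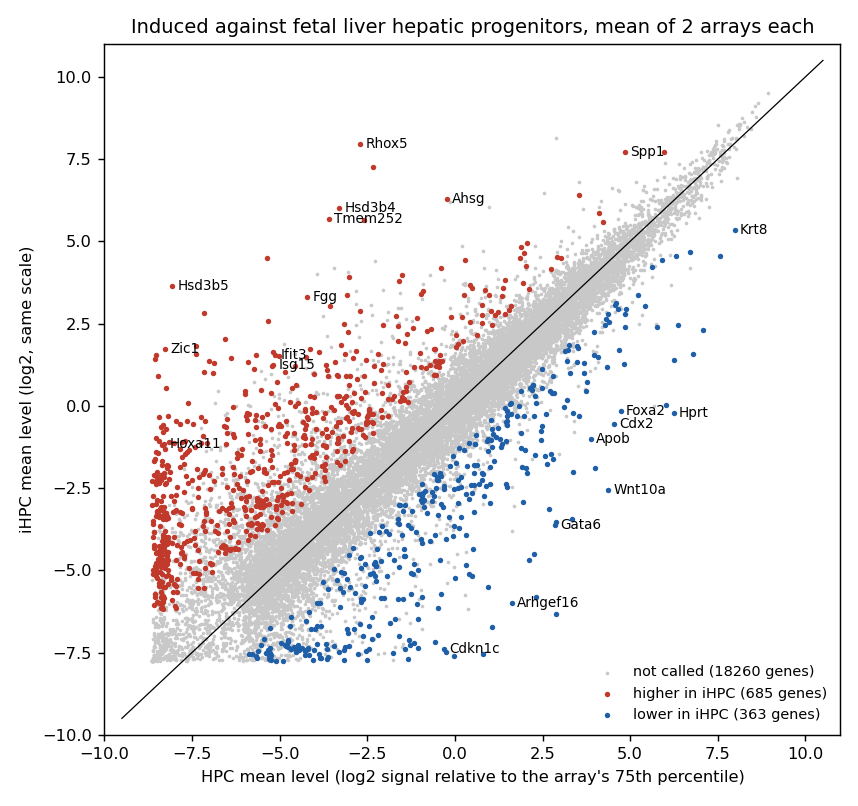
Mean level of each gene in HPC (x axis) and iHPC (y axis), both in log2 signal relative to the array's 75th percentile, with 2 arrays a group. Red points are the 685 genes called higher in iHPC, blue points the 363 called lower, grey points those not called, and the line marks equal levels. Rhox5 and Hsd3b4 lie far above the line, and Hprt and Wnt10a far below it.

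Rhox5, an X-linked homeobox gene of the reproductive tract and early embryo, showed the largest difference among genes measured in both groups. It was at -2.51 and -2.91 in HB1 and HNG2 and at 8.07 and 7.83 in the 9-factor and 10-factor iHPC. The groups were far apart and NPC, at 7.12, lay close to iHPC. Tmem252, a small membrane protein gene, was at -3.31 and -3.88 in HPC and at 5.6 and 5.73 in iHPC, 9.26 ± 0.28 (SE) higher (adjusted p = 0.0157). NPC was not well above background for it, so this level was new against the neural line. Tm4sf1, a tetraspanin-like surface protein, was at -2.25 and -2.95 in HPC, 5.63 and 5.66 in iHPC and 4.48 in NPC. Atp6v1c2, a subunit of the vacuolar proton pump, was at -5.29 and -6.06 against 1.60 and 1.47, with NPC not well above background. Ly6a, the stem cell antigen Sca-1, was at -4.18 and -1.87 in HPC and 3.97 and 3.85 in iHPC, 6.94 ± 0.87 (SE) higher (adjusted p = 0.0442). The unnamed transcript CF584628 was at -1.43 and -3.23 in HPC and at 7.21 and 7.34 in iHPC.

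Among the genes lower in iHPC and measured in both groups, Wnt10a, a Wnt ligand, differed most. It was at 3.56 and 5.20 in HPC and at -1.94 and -3.16 in iHPC (limma adjusted p = 0.037), with NPC at -6.71. Pttg1, which encodes securin, an inhibitor of chromatid separation, was at 2.52 and 4.15 in HPC and at -3.30 and -3.57 in iHPC. Dhh, a hedgehog ligand, was at 2.56 and 3.18 against -3.76 and -3.27, with NPC at -3.50. Tm4sf4, a tetraspanin-like gene of liver and intestine, was at 6.77 and 5.26 against 0.12 and -0.09. Ddc, the decarboxylase of dopamine and serotonin synthesis, was at 3.16 and 3.55 against -1.78 and -2.25, and Anxa8, an annexin, at 5.93 and 7.63 against 1.47 and 1.70. In each of these genes, picked for their large called differences in this direction, both HPC lines were above both iHPC arrays, as in 29.4% of all genes tested. Arhgef16, a guanine nucleotide exchange factor, was at least 133-fold lower in iHPC, a bound exceeded only by that of the unnamed transcript TC1537584, at least 316-fold lower. Nostrin, a trafficking factor of nitric oxide synthase, was at least 82.6-fold lower, and Prdm16, a zinc finger regulator of brown fat and stem cells, at least 35.9-fold lower.

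Many genes of secreted plasma proteins were called higher in iHPC and few lower. Over all genes tested 3.55% were higher and 1.88% lower, and list counts here and below are to be read beside these shares. Of 34 carriers, inhibitors and acute phase proteins tested, 9 were higher and 0 lower, with a median difference of 1.77. Coagulation and fibrinolysis genes gave 6 higher and 0 lower of 26 (median 1.61), complement genes 6 higher and 1 lower of 19 (median 1.53), and apolipoproteins with their assembly factors 3 higher and 1 lower of 18 (median 1.75). Ahsg, a fetal carrier protein known as fetuin A, was at -0.19 and -0.29 in HPC and at 6.24 and 6.34 in iHPC. Its relative Fetub was at -3.58 and -3.57 in HPC, 2.85 and 3.20 in iHPC and -0.71 in NPC, and was 6.6 ± 0.22 (SE) higher (adjusted p = 0.0157). For both genes the HPC lines nearly coincided while iHPC lay far above them.

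Kng1, the kininogen precursor of bradykinin, was at -4.05 and -6.69 in HPC and at 4.27 and 4.73 in iHPC, 9.88 ± 1.01 (SE) higher (adjusted p = 0.0329), with 1 of 2 HPC arrays well above background. Fgg, the gamma chain of fibrinogen, was at -3.80 and -4.63 in HPC and at 2.46 and 4.15 in iHPC, and Fga, the alpha chain, at -2.66 and -3.81 against 1.59 and 2.09. The third chain, Fgb, was at 4.35 and 1.41 in HPC and 8.07 and 8.21 in iHPC. It did not pass (adjusted p = 0.0914), although its groups did not overlap, as was so for 62.8% of all genes tested. Plg, the precursor of the clot-dissolving protease plasmin, was at least 18.6-fold higher. Apoh, a phospholipid-binding apolipoprotein, was at -0.63 and -2.56 in HPC and 3.79 and 3.80 in iHPC. Apob, the structural protein of low-density lipoprotein, went the other way, at 4.03 and 3.74 in HPC and -1.28 and -0.75 in iHPC (adjusted p = 0.0193).

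The acute phase genes Serpina3n, Orm2 and Orm1 were at least 50.4-fold, 36.1-fold and 15.2-fold higher in iHPC, and their probes may not separate near-identical relatives. Saa3, a serum amyloid A gene, was not well above background in HB1, at -5.63 in HNG2 and at 1.35 and 1.31 in iHPC. In the complement list Hc, which encodes component C5, was at -5.54 and -6.44 against 0.23 and 0.50. C1s1 and C1ra, proteases of the classical pathway, were at 0.46 and 0.43 and at -0.02 and 0.12 in iHPC, close to the NPC levels of 0.30 and 0.92. C2, another classical pathway component, was the complement gene called lower, at 2.53 and 1.36 in HPC and -3.01 and -2.84 in iHPC. Ambp, a precursor of 2 plasma proteins, also pointed down but did not pass. It was at 7.36 and 3.99 in HPC and at -0.42 and 0.41 in iHPC (adjusted p = 0.103). Alb (4.60 and 1.84 in HPC, 3.23 and 3.98 in iHPC) overlapped between the groups. Afp, whose activity was selected in making the iHPC, was at 5.98 and 2.98 in HPC and 6.40 and 6.82 in iHPC (adjusted p = 0.314).

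The 3-beta-hydroxysteroid dehydrogenases, a family of enzymes of steroid metabolism, gave 5 of 6 tested members higher in iHPC. Of the 6, 4 were dim in HPC and 4 in NPC, and members dim in both passed the filter only through iHPC. The direction of this list is therefore not independent of the filter. Hsd3b3 was dim on all 5 arrays and was not tested. The median difference was 7.93 as fitted and 7.05 with dim genes at their bound. Hsd3b4 was at -2.38 and -4.21 in HPC, 5.80 and 6.25 in iHPC and -3.66 in NPC. Hsd3b5 was at 3.48 and 3.79 in iHPC and not well above background in HPC or NPC, at least 985-fold higher. Hsd3b2 was at least 234-fold, Hsd3b1 at least 74.6-fold and Hsd3b6 at least 24.6-fold higher. These genes are closely similar and their probes may share signal, and for Hsd3b2 the 3 tested probes gave differences from 2.00 to 8.97. Hsd3b7, a distant relative that acts in bile acid synthesis, was at 2.10 and 1.71 in HPC and 2.44 and 2.58 in iHPC (adjusted p = 0.216). On chromosome 3 the tested genes Hsd3b4, Hsd3b5, Hsd3b2, Hsd3b6 and Hsd3b1 lie in a row with Hao2, a peroxisomal hydroxy acid oxidase. Hao2 was itself at least 48.9-fold higher, and these 6 genes form the longest run of neighbours called in 1 direction.

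Other metabolic lists moved less. Of 21 urea cycle and amino acid catabolism genes, 4 were higher and 0 lower. Cps1, which starts the urea cycle, was at -5.40 and -6.32 in HPC and -0.72 and 0.20 in iHPC. Arg2, the mitochondrial arginase, was at least 42.3-fold and Hgd, an enzyme of tyrosine breakdown, at least 63.3-fold higher. Arg1 and Tdo2, which mark mature hepatocytes, were not well above background on any array and were not tested. Of 35 conjugation and detoxification genes 4 were higher and 1 lower. Nqo1, a quinone reductase, was at -5.86 and -6.02 in HPC, -0.30 and -0.59 in iHPC and 2.26 in NPC, and Ephx1, an epoxide hydrolase, was at 2.74 and 2.68 against 0.30 and 0.60. Of 18 iron and heme genes 1 was higher, Cp, the copper protein ceruloplasmin (2.04 and 1.74 against 4.74 and 4.90), and 0 lower. That is 5.56% of the list, near the 5.43% called over all genes tested.

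Of 25 cytochrome P450 genes limma called 0 in either direction, as it did for 27 genes of cholesterol and fatty acid synthesis and for 25 Notch pathway genes. Before adjustment, 7 of the P450 genes, 0 of the synthesis genes and 7 of the Notch genes had p under 0.05. Cyp3a13 had the largest P450 difference, at 3.64 and 0.75 in HPC and -1.77 and -1.44 in iHPC (adjusted p = 0.14), and 9 listed P450 genes, among them Cyp7a1 and Cyp2e1, were dim on all 5 arrays. In the sterol list the differences ran from -1.04 to 0.77, so no member reached the smallest difference called in the data. Abcb11, the bile salt export pump, was higher in iHPC, at -5.21 and -5.47 against -2.38 and -2.44, and Abcc3, an organic anion exporter, lower, at 3.63 and 2.62 against -0.15 and 0.08, the 2 calls among 20 transporters. Of 33 glucose and glycogen genes 3 were higher (Pfkfb1, Eno2 and Pygb, by 1.80, 1.66 and 1.51) and 0 lower. Among 31 genes of fatty acid oxidation and binding Fabp4 and Fabp3, the adipocyte and heart fatty acid binding proteins, were higher by 6.53 and 3.25. Fabp2, the intestinal form, was at 0.71 and 0.07 in HPC and -5.26 and -4.98 in iHPC.

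**Figure D2:**
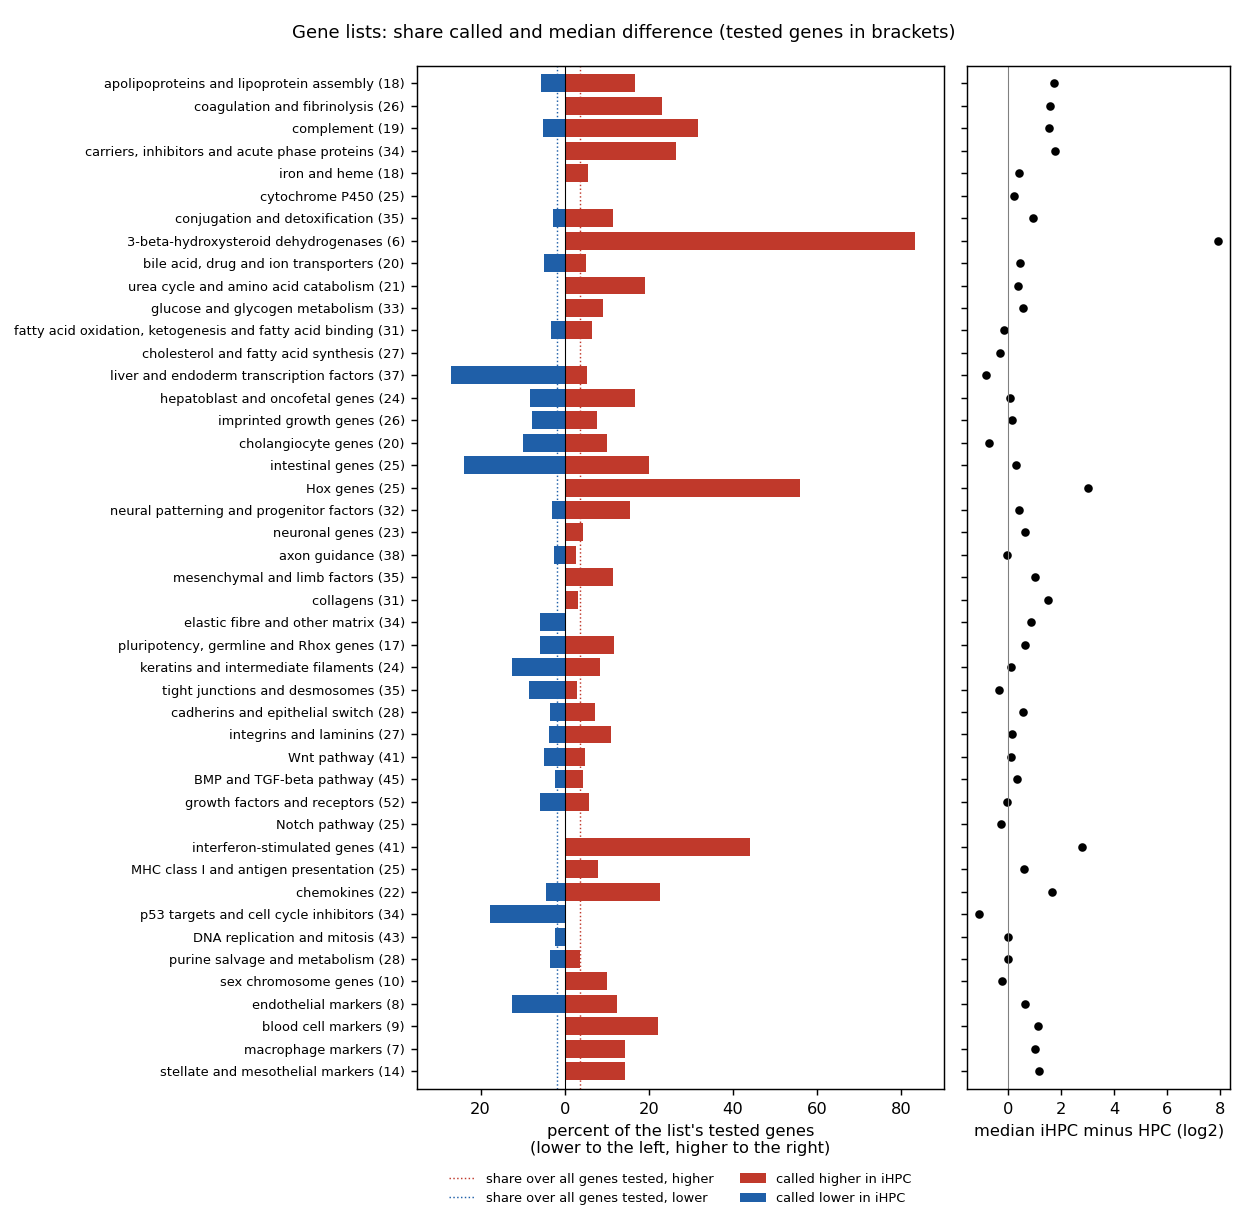
Gene lists with the number of tested genes in brackets. Left, percent of the tested genes called higher (red, to the right) or lower (blue, to the left) in iHPC, with dotted lines at 3.55% and 1.88%, the shares over all genes; right, the median difference of the tested genes in log2. In the left panel the Hsd3b, Hox and interferon bars reach furthest right and the bar of the liver and endoderm transcription factors furthest left.

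Transcription factors of liver and endoderm were called lower in iHPC more often than higher. Of 37 tested, 10 were lower and 2 higher, with a median difference of -0.83 as fitted and -0.59 with dim genes at their bound. Gata6, an endodermal zinc finger factor, was at 3.48 and 2.21 in HPC and -3.46 and -3.78 in iHPC (adjusted p = 0.0244), with its 3 tested probes differing between -6.47 and -1.69. Foxa2, a forkhead pioneer factor, was at 4.91 and 4.56 in HPC and 0.07 and -0.36 in iHPC, while NPC was at 2.98. Foxa3 was at least 13.3-fold lower. Onecut1 was at 2.71 and 2.90 against -1.75 and -1.48, and its relative Onecut2 at 4.69 and 4.97 against 1.02 and 1.52. Both Onecut genes were still lower in NPC, at -4.59 and -1.49. Zfpm1, a partner of Gata factors, was at 6.55 and 5.98 in HPC, 1.43 and 1.34 in iHPC and 2.03 in NPC.

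A smaller deficit was called for Hhex (3.53 and 3.04 against 0.79 and 1.21), needed for the liver bud. Tbx3 was at 1.35 and 0.45 in HPC and -2.42 and -2.46 in iHPC, and Cebpa at 1.32 and 1.64 against -0.55 and -0.61. For Cebpa, NPC stood at 1.46, inside the HPC range, so the iHPC level was low against both. Hnf4a, a nuclear receptor central to hepatocyte identity, was at 2.60 and 2.02 in HPC and 1.41 and 1.56 in iHPC and did not pass (adjusted p = 0.18). Cebpd, an acute phase regulator, was called higher, at 2.10 and 2.00 in HPC and 5.03 and 4.89 in iHPC. Prox1, a hepatoblast homeobox factor, was at -0.25 and -2.05 against -6.13 and -4.83 (adjusted p = 0.0815).

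Epithelial and progenitor genes were called in both directions. Krt8 and Krt7, keratins of simple and ductal epithelia, were at 7.94 and 8.03 and at 7.19 and 7.93 in HPC. In iHPC they were at 5.48 and 5.22 and at 4.67 and 4.44, so that Krt8 fell by 2.63 and Krt7 fell by 3.0 log2 units, with both not well above background in NPC. Among 24 keratins and other filament genes 3 were lower and 2 higher. Cdh1, the epithelial cadherin, was at 4.57 and 3.28 against 1.48 and 1.84 and did not pass (adjusted p = 0.105). Cdh16, a cadherin known from kidney, was at -5.85 and -4.80 in HPC and 3.17 and 2.00 in iHPC. Of 35 junction genes 3 were lower, including Cldn2 (4.02 and 3.92 against 1.20 and 1.90), and 1 higher, Cldn3 (-2.65 and -1.44 against 2.39 and 2.51). Lists of 28 cadherin and switch genes and 27 integrin and laminin genes gave 2 higher and 1 lower and 3 higher and 1 lower.

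Of 24 hepatoblast and oncofetal genes, 4 were higher and 2 lower. Gpc3, a fetal liver proteoglycan, was at least 58.9-fold higher in iHPC, where it was at 0.36 and -1.02. Spp1, osteopontin, was at 4.83 and 4.86 in HPC, 7.89 and 7.57 in iHPC and 8.47 in NPC. Cd24a, a surface antigen of progenitors, was at 4.85 and 4.91 against 2.92 and 2.98. The 20 cholangiocyte genes gave 2 higher and 2 lower. Ggt1, gamma-glutamyltransferase, was at -5.90 and -4.55 in HPC and 1.06 and 1.36 in iHPC, while Tspan8, a tetraspanin, was at 5.32 and 5.11 against 3.27 and 3.48.

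Intestinal genes were called in both directions, 6 lower and 5 higher of 25. Cdx2, the master homeobox factor of intestine, was at 4.70 and 4.37 in HPC and -0.29 and -0.83 in iHPC, and not well above background in NPC. Krt20, an intestinal keratin, was at 6.50 and 6.21 against 2.64 and 2.26, and Cdh17, the liver-intestine cadherin, at 1.77 and 1.89 against 0.08 and -0.12. Tm4sf5 was at least 19.4-fold lower. Reg3g, an antimicrobial lectin, and Clca1, a mucus protein, were at least 7.74-fold and 18.9-fold higher. Also called higher were Sox2 and Barx1, foregut factors that NPC also carried.

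**Figure D3:**
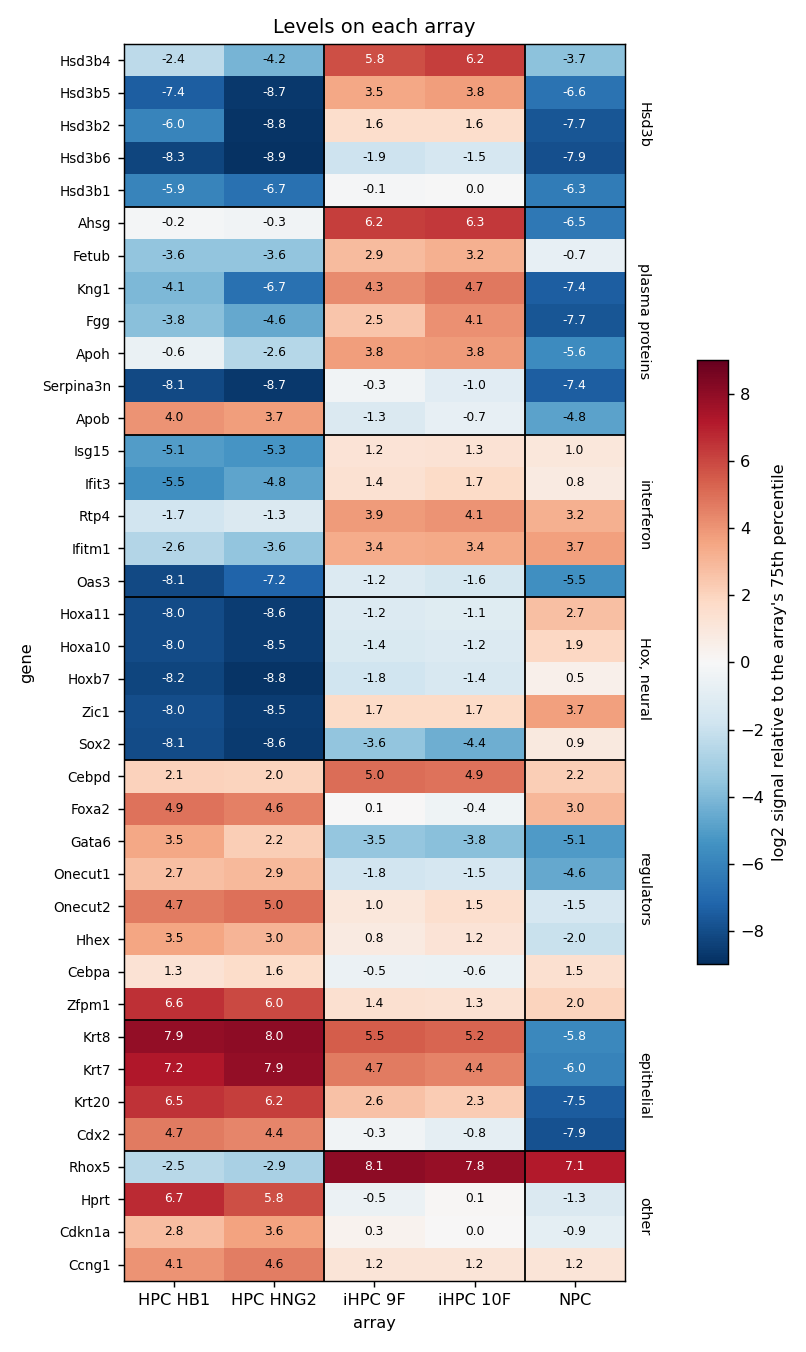
Level of selected genes on each of the 5 arrays, in log2 signal relative to the array's 75th percentile (red high, blue low, value printed in each cell). Colours are for comparing arrays within a gene, not genes with each other. The 2 iHPC arrays lie near each other in most rows shown, but less so for Fgg. The Hsd3b and plasma protein rows except Apob are higher in iHPC than in HPC, and the regulator rows except Cebpd are lower.

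Interferon-stimulated genes encode antiviral and antigen-handling proteins that cells switch on together through interferon receptors and the Stat and Irf factors. Of 41 tested, 18 were called higher in iHPC and 0 lower, with a median difference of 2.80. For 37 of the 41 both iHPC arrays lay above both HPC lines and for 2 below, against 33.4% and 29.4% of all genes tested. The factors act through a promoter element whose core is GAAA, a pair of bases of any kind and GAAA again, or TTTC, a pair of bases and TTTC on the other strand. It was searched on both strands in the window of 300 bases around the start of each gene in the RefSeq table of build GRCm38.p6. The core was found for 3.99% of 27025 genes in the table and for 3.64% of 11181 tested genes. Of 30 tested interferon-stimulated genes with an entry, 17 held it, and these were 6 of 11 called genes and 11 of 19 not called. The 200 bases before the start are given for 3 of the 6 called genes that hold the core, which is in capitals on either strand. They were chosen for holding it. Ifitm1 and Ifi44, also called, have an entry without the core.
Isg15 (chr4:156200819-156201018, minus strand): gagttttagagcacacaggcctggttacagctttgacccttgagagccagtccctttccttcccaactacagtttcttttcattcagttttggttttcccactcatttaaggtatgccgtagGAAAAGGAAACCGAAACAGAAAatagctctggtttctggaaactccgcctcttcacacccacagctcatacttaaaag
Ifit3 (chr19:34583329-34583528, plus strand): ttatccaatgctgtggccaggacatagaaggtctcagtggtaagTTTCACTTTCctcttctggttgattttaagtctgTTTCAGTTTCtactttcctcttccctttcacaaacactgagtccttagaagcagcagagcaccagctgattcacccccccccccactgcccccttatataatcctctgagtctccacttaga
Oas3 (chr5:120777660-120777859, minus strand): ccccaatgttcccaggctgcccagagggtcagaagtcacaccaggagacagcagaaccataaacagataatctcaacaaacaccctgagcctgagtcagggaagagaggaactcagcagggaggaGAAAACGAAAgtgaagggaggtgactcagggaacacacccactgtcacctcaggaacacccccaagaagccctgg
In Isg15 3 overlapping matches begin 78, 72 and 66 bases before the start, in Ifit3 matches begin 156 and 122 bases before it, and in Oas3 1 match begins 75 bases before it. A match describes the letters only and says nothing of binding.

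Isg15, a ubiquitin-like protein, was at -5.05 and -5.32 in HPC, 1.23 and 1.27 in iHPC and 1.01 in NPC, 6.43 ± 0.21 (SE) higher than in HPC (adjusted p = 0.0157). Ifit3, which binds viral RNA complexes, was at -5.49 and -4.76 in HPC, 1.39 and 1.71 in iHPC and 0.83 in NPC. For both genes NPC lay near iHPC and far from HPC. Oas3 and Oas2, enzymes that make the messenger 2-5A, were at least 29.8-fold and 52.5-fold higher in iHPC and not well above background in NPC. Ifitm1, a membrane restriction factor, was at -2.61 and -3.55 in HPC, 3.37 and 3.39 in iHPC and 3.68 in NPC, and Ifi44 was at least 23-fold higher. Among the 18 called, NPC stood at the parental level, as defined with the classes of origin, in 12, between the groups in 5 and at the HPC side in 1.

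Fewer calls were made among other immune genes. Of 22 chemokine and cytokine genes 5 were higher and 1 lower. Cxcl10, an interferon-induced chemokine, was at -1.94 and -1.90 in HPC, 0.61 and 0.63 in iHPC and -2.20 in NPC. Cxcl11 and Il6 were at least 22.1-fold and 3.32-fold higher. Ccl5 was at -4.82 and -3.43 in HPC and 0.27 and 0.34 in iHPC, and Cxcr4, a chemokine receptor, was at least 6.32-fold higher. Of 25 genes of MHC class I and antigen presentation, Tap2 and Tapbp, parts of the peptide loading complex, were higher, by 2.42 and 1.42, and 0 were lower. B2m, the light chain of class I molecules, was at 2.68 and 4.05 against 5.45 and 5.18 and did not pass (adjusted p = 0.137).

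Hox genes, which specify position along the body axis, were called higher in iHPC for 14 of 25 tested members, with 0 lower. Over all genes tested 3.55% were called higher. A further 16 listed Hox genes were dim and not tested. Members dim in HPC passed the filter only through iHPC or NPC, and 0 of the 25 were dim in NPC. The direction of this list is therefore not independent of the filter. In HPC 15 of the 25 were dim, and the median difference was 3.02 as fitted and 2.24 with dim genes at their bound, or at 0 where no fold can be given. Hoxa11 was at -1.22 and -1.10 in iHPC and 2.71 in NPC, Hoxa10 at -1.36 and -1.24 against 1.85, and Hoxb7 at -1.78 and -1.43 against 0.49. None was well above background in HPC, and their bounds were at least 35.6-fold, 32.2-fold and 26.1-fold. In iHPC each thus stood between HPC and NPC. Hoxd4 was at -2.49 and -2.29 in iHPC, with NPC at -3.39. Hoxa7, Hoxa9, Hoxa10, Hoxa11 and Hoxa13 form a run of 5 tested neighbours on chromosome 6, although Hoxa13 and Hoxd9 were not well above background in either group.

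Of 32 neural patterning and progenitor genes 5 were higher and 1 lower. Zic1, a zinc finger factor of dorsal neural tissue, was at 1.74 and 1.71 in iHPC and 3.70 in NPC, at least 262-fold above HPC. Sox2, a factor of neural stem cells, was at -3.57 and -4.41 in iHPC and 0.86 in NPC, at least 4.97-fold above HPC. Pax6 was at -4.73 and -4.84 in HPC, -3.05 and -2.84 in iHPC and -0.99 in NPC. Lhx2 was not well above background in HB1, at -5.97 in HNG2 and at -1.02 and -0.71 in iHPC. Slc1a3, a glial glutamate transporter, was at least 38.0-fold higher, with 3 probes between 0.91 and 7.39. Nes, which encodes nestin, was at 0.28 and 1.52 against 2.66 and 2.87 (adjusted p = 0.128). Of 23 neuronal genes 1, the synaptic vesicle gene Syt1, was higher, at least 8.41-fold, and 0 lower. That is 4.35% of the neuronal list, against 5.43% called over all genes tested.

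Mesenchymal and limb factors gave 4 higher and 0 lower of 35 (median 1.03 as fitted, 0.89 with dim genes at their bound). Tbx18 and Alx1 were at least 8.44-fold and 4.08-fold higher, and Eya1 was at -3.23 and -3.86 in HPC, 0.05 and -0.09 in iHPC and 2.95 in NPC. Twist1, a factor of mesenchyme, was not well above background in HB1, at -5.41 in HNG2 and at 0.26 and -0.09 in iHPC. It did not pass (adjusted p = 0.0604). The 31 collagens gave 1 call, Col5a2, at least 3.08-fold higher, and the 34 elastic fibre and other matrix genes 0 higher and 2 lower, among them Loxl2, a collagen cross-linking enzyme (3.72 and 3.65 against 1.43 and 1.20). Of 38 axon guidance genes 1 was higher and 1 lower. The shares called were 3.23% of the collagens, 5.88% of the matrix genes and 5.26% of the axon guidance genes. Over all genes tested the share was 5.43%.

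Among genes under imprinting, 2 of 26 were higher and 2 lower. Slc38a4, an amino acid transporter, was at least 149-fold higher, at 0.83 and 0.98 in iHPC and 1.88 in NPC, and its 2 tested probes gave differences of 3.12 and 9.38. Peg10, a placental gene, was at least 4.34-fold higher. Igf2r, the clearance receptor of Igf2, was at 3.05 and 2.09 in HPC and -1.71 and -1.35 in iHPC, and Cdkn1c, a cell cycle inhibitor, was at least 34.5-fold lower. Igf2 itself was at -0.67 and -2.13 in HPC and 3.38 and 1.90 in iHPC, and H19 at 3.98 and -0.72 against -3.63 and -4.0. Neither of these neighbouring genes passed (adjusted p = 0.0825 and 0.164). Of 17 pluripotency, germline and Rhox genes 2 were higher and 1 lower.

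Targets of the tumour suppressor p53 and cell cycle inhibitors were called lower in iHPC for 6 of 34 genes, with 0 higher and a median difference of -1.08. Cdkn1a, the inhibitor p21, was at 2.77 and 3.63 in HPC and 0.32 and 0.04 in iHPC. Ccng1 was at 4.06 and 4.63 against 1.18 and 1.19, Mdm2, the p53 ubiquitin ligase, at 2.56 and 3.06 against 0.93 and 0.89, and Tnfrsf10b, a death receptor, at -0.48 and -0.62 against -2.46 and -2.55. NPC was near iHPC for Ccng1 (1.15), Mdm2 (0.79) and Tnfrsf10b (-2.83). The inhibitors Cdkn2b and Cdkn2a showed large differences that did not pass. Cdkn2b was at 0.78 in HB1 and -8.65 in HNG2, where it was not well above background, and at 4.08 and 3.91 in iHPC. Cdkn2a was at -2.34 in HB1, not well above background in HNG2 and at 1.38 and 0.74 in iHPC.

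Of 43 genes of DNA replication and mitosis 1, Ccne2, a cyclin of S phase entry, was lower, by 1.72 log2 units, and 0 were higher. That is 2.33% of the list, against 5.43% called over all genes tested. Hprt, the purine salvage enzyme used as a drug selection marker, was at 6.69 and 5.79 in HPC, -0.55 and 0.11 in iHPC and -1.33 in NPC. Both HPC lines were thus far above iHPC and NPC, and Hprt was the call in the lower direction among 28 purine genes. Nt5e, the surface enzyme CD73, was the call in the higher direction (-2.25 and -3.32 against 1.08 and 0.57).

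In the signalling lists calls went both ways, over 9.76% of the Wnt, 11.5% of the growth factor and 6.67% of the BMP and TGF-beta genes, against 5.43% of all genes. Of 41 Wnt pathway genes 2 were higher and 2 lower. The Wnt inhibitors Wif1 and Frzb were higher, Wif1 at least 33.0-fold and Frzb at -5.83 and -5.39 in HPC, -2.27 and -1.53 in iHPC and 1.88 in NPC, while Wnt10a and the receptor Fzd10 were lower. Of 52 growth factors and receptors 3 were higher and 3 lower. Fgf21, a liver hormone, was at least 9.84-fold higher, and Igfbp1, a liver-secreted binding protein of insulin-like growth factors, was at -3.28 and -2.81 against 2.04 and 2.42. Mst1r, the receptor of hepatocyte growth factor-like protein, was at -0.44 and -0.99 in HPC and -4.14 and -4.07 in iHPC. Pdgfd was at least 17.3-fold lower. Of 45 BMP and TGF-beta genes 2 were higher and 1 lower, with Tgfbi, a matrix protein induced by TGF-beta, at -3.51 and -2.47 in HPC, 0.76 and 1.05 in iHPC and 6.66 in NPC. Gdf15, a stress-induced cytokine, was at 1.18 and 0.47 against -2.68 and -2.80.

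Markers of other cell types that cultures could hold were also read. Of 20 listed blood cell genes 9 were tested, 2 were higher and 0 lower, and 7, including Spi1, Gata1 and Tal1, were dim on all 5 arrays. Ptprc, the leukocyte antigen CD45, was at -3.29 and -2.84 in iHPC and not well above background in HPC or NPC, at least 9.49-fold higher. Of 15 macrophage genes 7 were tested, of which Mpeg1 was higher (-4.55 and -5.43 against -2.12 and -2.13), while Adgre1, Cd163 and Clec4f were dim on all 5 arrays. Of 14 endothelial genes 8 were tested, with Vwf higher and Esam lower. Pecam1, Cdh5 and Tie1 were dim on all 5 arrays. Of 14 stellate and mesothelial markers tested 2 were higher and 0 lower. The median level of the tested blood cell markers was -4.49 and -5.03 in HPC and -3.66 and -3.73 in iHPC, and their part in the interferon and chemokine results was not tested. For the macrophage markers these medians were -2.78 and -4.75 against -2.12 and -2.13, for the endothelial ones -5.03 and -7.36 against -4.79 and -4.74, and for the stellate and mesothelial ones -3.02 and -2.07 against -0.36 and -0.13.

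Of 10 sex chromosome genes 1 was called. Xist, the RNA that silences an X chromosome, was at -2.02 and -0.58 in iHPC and not well above background in HPC or NPC, at least 32.2-fold higher. The Y-linked gene Eif2s3y was at 1.92 and 1.60 in HPC, 0.47 and 0.05 in iHPC and 0.36 in NPC. Ddx3y, also Y-linked, was at 0.93 in HB1, -0.12 and -0.33 in iHPC and not well above background in HNG2. Kdm5d, another Y-linked gene, was at -1.08 and -0.81 in HPC and -7.68 and -4.46 in iHPC. None of these 3 Y-linked genes passed (adjusted p = 0.0723, 0.556 and 0.107).

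Each called gene was then placed by its NPC level on the way from HPC (0%) to iHPC (100%). A position of 75% or more was taken as the parental level, 25% to 75% as between, and under 25% as new in the induced cells. NPC is 1 array, so this is a description with no test. It was scanned on the same day as both iHPC arrays and on the same slide as iHep-10F. Both HPC arrays were on other days and slides, so a level that NPC shares with iHPC cannot be told apart from scan day. Of the 685 genes higher in iHPC, 396 (57.8%) were at the parental level, 118 (17.2%) between and 171 (25%) new. Of the 363 lower, 269 (74.1%) were at the parental level, 44 (12.1%) between and 50 (13.8%) new. NPC was not well above background for 120 of the 269 lower and 0 of the 396 higher genes at the parental level. The position of those 120 rests on a dim NPC value. At the parental level 90 higher and 41 lower genes were also called between iHPC and NPC, so the class does not mean equal levels. Among all genes that differed at least 4-fold between the groups, called or not, the parental level held 59.0% of 1416 higher and 71.3% of 641 lower genes.

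The parental class holds 2 kinds of genes, which were split at 125% after the values were seen. At 75% to 125% were 164 higher and 168 lower genes. Rhox5, Zic1 and Slc38a4 are higher examples, with Ddr2, a collagen receptor, at 1.20 and 0.81 in iHPC and 2.94 in NPC. Lower examples are Gata6, Hprt, Dhh and Prdm16, the last not well above background in iHPC or NPC. The class is a share of the distance from HPC, and Zic1, Ddr2, Gata6 and Hprt still differed by over 1 log2 unit between iHPC and NPC. Over 125%, where NPC lay beyond iHPC, were 232 higher and 101 lower genes. Their iHPC level lay between NPC and HPC, as in the higher genes Hoxa11, Crabp1 (-6.40 as the HPC mean, 1.46 as the iHPC mean and 5.23 in NPC) and Tgfbi, and in the lower genes Krt8, Cdx2, Onecut1 and Apob. Crabp1 binds retinoic acid. The median distance of iHPC from NPC was -2.02 for these higher genes and 2.11 for the lower ones.

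The new differences include the Hsd3b genes, Kng1, Ahsg, Fgg and Tmem252 among the higher genes. For 112 of the 171 new higher genes NPC was not well above background, and 141 were also called higher in iHPC than in NPC. Slc17a1, a phosphate and urate transporter, was at 1.96 and 1.68 in iHPC, at least 279-fold above HPC, and Cltrn, collectrin, was at 0.94 and 1.92, at least 213-fold. Neither was well above background in NPC. Among the 50 new lower genes, Sulf2, a heparan sulfate sulfatase, had means of 2.74 in HPC and -1.45 in iHPC and stood at 2.33 in NPC. Mogat2, an acylglycerol acyltransferase, had means of 1.92 and -1.85 with NPC at 1.77, and the Ron receptor gene Mst1r stood at 0.24 in NPC. In these genes the induced cells were low against both HPC and the line they came from.

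**Figure D4:**
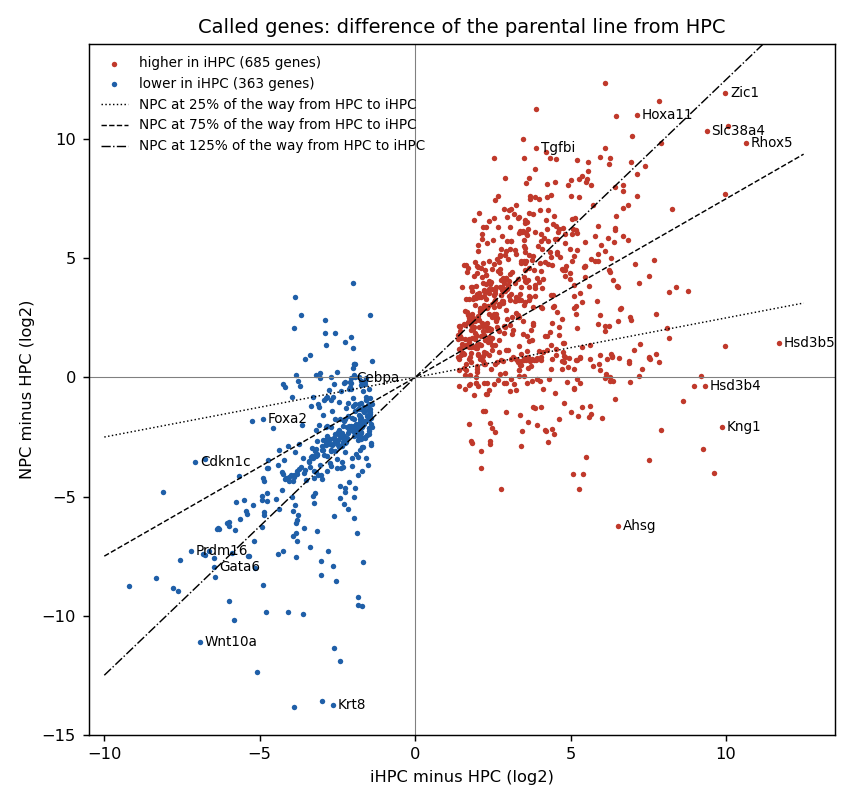
The 1048 called genes by their iHPC minus HPC difference (x axis, log2) and their NPC minus HPC difference (y axis, log2), red for higher and blue for lower in iHPC. Dotted, dashed and dash-dotted lines mark NPC at 25%, 75% and 125% of the way from HPC to iHPC. Rhox5 and Zic1 lie with the parental level, Hsd3b5, Kng1 and Ahsg near or below 0 on the y axis, and Krt8 far beyond the 125% line. Both axes share the HPC mean, so their trend is no result.

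The HPC lines differed from each other more than the iHPC arrays did. Over all tested genes the SD had a median of 0.37 in HPC and 0.11 in iHPC. The HPC lines come from different strains and were scanned on different days, while the iHPC arrays share the parental line and the scan day. The wider spread in HPC cannot be told apart from these. HB1 and HNG2 differed at least 4-fold in 1660 genes, against 141 for the 2 iHPC arrays, and 14 of the 1660 were called. That few were called follows from the test, as the difference between the lines enters the spread used by limma. In these 1660 genes iHPC lay within the range of the lines in 902, above both in 559 and below both in 199. They were nearer to HNG2 in 926 (55.8%) and nearer to HB1 in 734. Counted over all genes, iHPC differed at least 4-fold from HB1 alone in 1113 genes, from HNG2 alone in 950, and from both in 1312 in the same direction, 913 higher and 399 lower. Of the 1312, 796 were called.

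Some large differences missed the threshold. Of 536 genes that differed at least 16-fold between the group means, 333 were called and 203 were not. Gpx3, a plasma glutathione peroxidase, was not well above background in HB1, at -0.61 in HNG2 and at 4.28 and 4.11 in iHPC (adjusted p = 0.132). Sema7a, a membrane semaphorin, was also not well above background in HB1, at -2.22 in HNG2 and at 1.96 and 1.78 in iHPC (adjusted p = 0.143). Col6a1, a chain of type VI collagen, was at -8.02 in HB1, 0.48 in HNG2 and 2.77 and 2.69 in iHPC (adjusted p = 0.281), and Efemp1, a fibulin, at -8.16, 2.51, 3.13 and 3.06 (adjusted p = 0.404). For both, HNG2 was near iHPC and HB1 was not well above background. Grb10, an adaptor of growth factor receptors, pointed the other way, at 0.14 and -3.10 in HPC (adjusted p = 0.0913). It was not well above background on either iHPC array. With 2 arrays a group, an exact permutation test on any single gene could not go below p = 0.333.

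**Figure D5:**
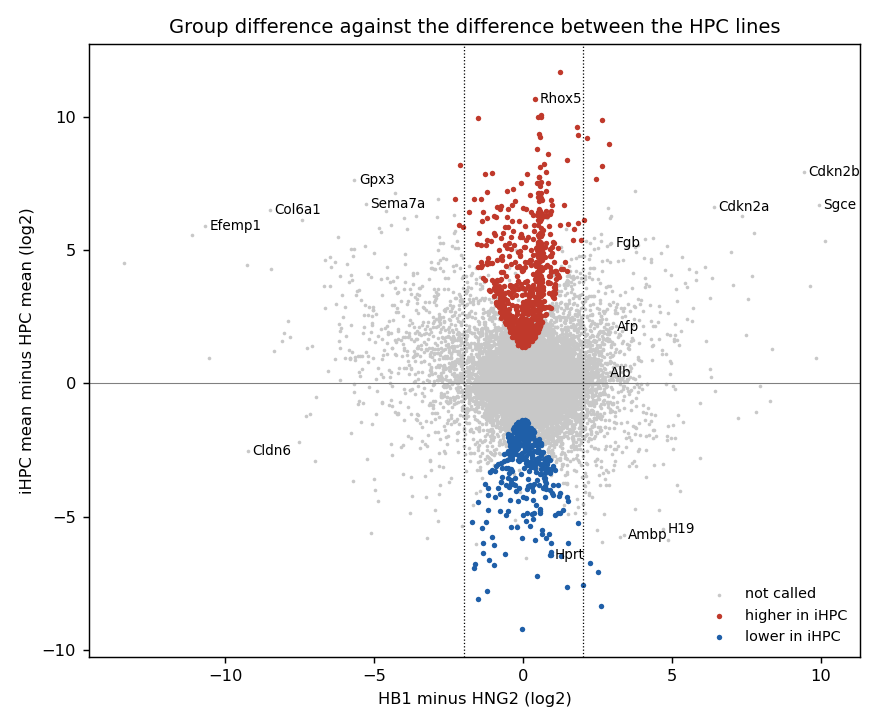
Difference between HB1 and HNG2 (x axis, log2) against the difference between the iHPC and HPC means (y axis, log2) for each tested gene. Red and blue points are called higher and lower in iHPC, grey points not called, and dotted lines mark a 4-fold difference between the HPC lines. Calls lie mostly between the dotted lines, while Cdkn2b, Col6a1, Efemp1 and H19 lie outside them. The difference between the lines enters the spread used by limma, so this placing of the calls is no result.

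Some genes called in 1 direction lay side by side on chromosomes. Of the called genes 812 could be placed among 14059 tested genes in chromosome order, and 8 runs held 3 or more neighbours, 29 genes in all. How many runs the same number of genes placed at random would give was not computed, so this is a description. Several runs hold related genes, whose probes may share signal. The longest were the Hsd3b and Hoxa runs. C1rl, C1ra and C1s1 on chromosome 6, Ggt1, Ggt5 and Susd2 on chromosome 10, and Hoxd9, Hoxd8 and Hoxd4 on chromosome 2 are further runs of higher genes. So is Ypel4, Serping1 and Ube2l6 on chromosome 2, in which Serping1, the C1 inhibitor, was at least 16.3-fold higher. The run of lower genes was Lefty1, Tmem63a and Ephx1 on chromosome 1, where Lefty1, a Nodal antagonist, was at 1.30 and 0.76 in HPC, -0.98 and -1.10 in iHPC and 0.79 in NPC.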

How the data were processed

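Total RNA of 5 cultures, 1 Agilent 1-colour array each, was compared. The deposited files hold scanner intensity values from Feature Extraction, background-subtracted per the file headers. The members and gene lists were chosen with earlier results of these data known. Control spots and flagged outliers were removed, and log2 of the deposited intensity was set against each array's 75th percentile. A probe was kept where all arrays of some group had it well above background, with the brightest probe per gene. limma 3.58.1 in R 4.3.3 fitted all 5 arrays in 3 groups, with Benjamini-Hochberg adjustment over 19308 genes. In data simulated for iHPC against HPC over 19308 genes, 2%, 40%, 60% and 78% of the 50 genes changed by log2 2, 4, 6 and 8 were recovered, with 4 false calls. The simulation gave each gene the same spread in HPC and iHPC. In the data the median SD was 0.37 in HPC and 0.11 in iHPC, so these rates need not hold for the calls made.

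Named genes were the 12 highest, lowest and largest-bound called genes, up to 6 called and 2 uncalled members per list, the 10 largest per NPC class and among uncalled genes, fixed controls and the longest neighbour runs. Hhex, Cebpa, Cebpd, Tbx3, Barx1, Hoxa9, Hoxa13, Hoxd8, Hoxd9, Eif2s3y, Havcr1, Slc6a18, Slc17a3, TC1537584 and members of the shorter runs were named after their values were seen. Alternatives covered normalization, background correction, probe filters, probe averaging, the variance trend, left-out arrays and class limits. Probe names came from RefSeq accessions or symbols where matched. Promoters are RefSeq, GRCm38.p6. Some genes are not reported here.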

Additional observations from a re-analysis of the deposited data

How the results depend on the processing

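Settings that moved a count by over 1.5 times are given as called genes, then higher and lower ones. Normexp gave 2121, 1392 and 729, no filter on dim probes 460, 347 and 113, and probes well above background on all 5 arrays 617, with 360 higher. Lower genes numbered 559 with quantile normalization, 621 with median centring and 622 with a mean-variance trend. Higher genes at the parental level numbered 800 with normexp, 190 without the filter, 224 with the strict filter and 164 with the upper limit of 125%, which was chosen after seeing the data. Those between numbered 346, 53 and 72 in the first 3 of these settings, and new ones 104 without the filter and 64 with the strict one. Lower genes at the parental level numbered 476 with median centring, 563 with normexp, 92 without the filter, 475 with the trend and 168 with the 125% limit. Those between numbered 89 with quantile normalization, 83 with median centring, 101 with normexp, 13 without the filter and 84 with the trend, and new ones 8 without the filter. With 1 array left out in turn, calls ranged from 0 to 6983, higher ones from 0 to 3948 and lower ones from 0 to 3461. Higher genes at the parental level ranged from 0 to 2534, between from 0 to 644 and new from 0 to 770. Lower genes in these classes ranged from 0 to 2541, from 0 to 541 and from 0 to 592. The cause of these shifts was not tested. Of 154 called genes named in the text, 104 were called in each of the 8 settings that left out no array. Of all 1048 calls, 23 changed sign with normexp, 1 with the 4 arrays alone 1 with the mean of a gene's probes and 1 to 3 with an array left out. Of the named genes 3, none of them called, changed sign. Pax2 differed by 0.32 with normexp, and without HPC replicate 2 Alb differed by -1.0 and Ddx3y by -1.15, against 1.77 and 8.49 without HPC replicate 1. The fit of 4 arrays has no NPC and gives no classes, and the random block for scan day could not be fitted. No paired analysis was possible because the replicate numbers only name different lines or factor sets. Probes near background limit the genes given as bounds.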

Other observations

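Several genes best known from kidney tubule were called higher in iHPC. They were grouped after their values were seen, so no test is given. Kidney genes were not counted as a list, so no share stands beside the 3.55% called higher over all genes tested. Cdh16, the kidney cadherin, was at -5.85 and -4.80 in HPC and 3.17 and 2.00 in iHPC. Slc17a1 and its neighbour Slc17a3, phosphate and urate transporters, were at least 279-fold and 54.2-fold higher, and Slc6a18, an amino acid transporter, at least 39.9-fold. Havcr1, the injury marker Kim-1, was at least 31.5-fold higher. None of these genes was well above background in NPC. Those given as bounds were dim in HPC too and passed the filter only through iHPC, so their direction is not independent of it. Ggt1 and Cltrn, also known from tubule brush border, were called higher too. Pax2, a kidney developmental factor, was not among them, at -5.66 and -5.57 in HPC and not well above background in iHPC, and Lrp2, the endocytic receptor megalin, was at -4.45 and -3.79 against -2.11 and -1.75 (limma adjusted p = 0.059).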
